A study of Homo sapiens with 6 samples.

Results

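The genes described here encode potassium, sodium and calcium channels and their accessory subunits. They were chosen by symbol from the deposited expression table: KCN names, SCN names ending in A or B, and the CACNA1, CACNA2D, CACNB and CACNG names. The pattern took 140 of 57500 listed genes, and the 117 with a count above 0 in 3 or more of the 6 libraries are the members. The count rule left out 23 genes of the pattern, none of which had more than 3 reads in any library. Among the members are 84 genes with a potassium channel name, 11 with a sodium channel name and 22 with a calcium channel name. The working name of voltage-gated channels is broader than the gating: the KCN names also cover inward rectifiers (KCNJ), tandem-pore leak channels (KCNK) and channels opened by intracellular calcium or sodium (KCNMA, KCNN, KCNT). They also cover the noncoding RNA gene KCNQ1OT1 and KCNRG, which encodes a regulator rather than a pore.

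RNA-seq was done on 22Rv1, a human prostate carcinoma line in long use, grown in RPMI medium with fetal bovine serum, in 2 groups of 3 libraries. The liver-derived group (LV) was 22Rv1 labelled as derived from a liver metastasis, and the parental group (WT) was the line labelled as control or wild type. No transgene, drug or other allele is named for either group. The labels name no separate derivations and no host animal, so the spread between derivations was not measured, and they do not say whether libraries of a group were separate cultures.

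Library totals were 28395265 to 53275252 counts in LV and 46031158 to 50934457 in WT. All 8 prostate adenocarcinoma markers passed the filter (3 higher, 4 lower and 1 not passed). CPM is counts per 1000000 counts of a library after TMM scaling. Of 12 hepatocyte markers, 9 were too low to be tested, 2 were higher and 1 lower, and FGA was at 0 in all libraries; their summed level was 65.5 to 69.4 CPM in LV and 43.4 to 53.9 CPM in WT, most of it ALB. The 12 markers of stroma, endothelium and leukocytes summed to 32.2 to 41.4 CPM in LV and 34.4 to 36.6 CPM in WT, with CDH5 and CD3E at 0 and 2 of 8 tested lower. The 5 muscle markers, none called among 4 tested (edgeR), summed to 4.04 to 8.38 CPM in LV and 3.05 to 5.33 CPM in WT. The 7 neural markers summed to 48.4 to 52.1 CPM in LV and 40.6 to 43.5 CPM in WT, with 2 higher and 3 lower of 6 tested. WT replicate 2 stood apart, as a chi-square test of gene counts gave 55.7 and 62.7 per degree of freedom against the other WT libraries. Those 2 gave 2.26 against each other and the LV pairs 2.43 to 3.15; member counts without WT replicate 2 are given at the end.

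Ion channels of these families open a pore for a single kind of ion. Potassium efflux returns or holds the membrane at a negative potential, sodium influx depolarises it rapidly, and calcium influx links the potential to secretion, contraction and transcription. The pore is made by alpha subunits, and beta, gamma, alpha2delta, KCNE, KCNAB and KCNIP subunits change how the pore opens or where it is placed. They are best known from nerve and muscle, but epithelial cells and cancer cells transcribe many of them, and potassium, sodium and calcium channels have been studied in prostate cancer cells for their part in proliferation and migration.

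The promoters of the calcium channel gene that fell most and of the potassium channel genes that rose most are shown to place these genes on the genome, taken among members changed at least 2-fold that had an entry in the RefSeq promoter table (GRCh38.p14). Each line gives the 250 bases before the RefSeq start, 5′ to 3′ on the gene's strand, with matches to the GC box GGGCGG or its reverse complement CCGCCC in capitals, overlapping matches included. This motif was found in the same window of 65.3% of the 11988 promoters of genes tested here and of 42.3% of all 27305 promoters, so it is common among expressed genes.
CACNA1B, chr9:137877532-137877781, plus strand: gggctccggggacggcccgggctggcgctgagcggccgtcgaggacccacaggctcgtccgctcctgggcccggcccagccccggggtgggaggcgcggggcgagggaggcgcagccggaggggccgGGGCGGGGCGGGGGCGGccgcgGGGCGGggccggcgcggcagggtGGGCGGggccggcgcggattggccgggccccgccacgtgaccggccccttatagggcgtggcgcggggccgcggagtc
KCNJ8, chr12:21774707-21774956, minus strand: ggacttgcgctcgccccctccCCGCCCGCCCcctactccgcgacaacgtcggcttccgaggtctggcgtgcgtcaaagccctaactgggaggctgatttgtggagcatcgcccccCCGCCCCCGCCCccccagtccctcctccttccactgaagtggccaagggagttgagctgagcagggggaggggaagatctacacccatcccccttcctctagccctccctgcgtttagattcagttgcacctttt
KCND1, chrX:48971845-48972094, minus strand: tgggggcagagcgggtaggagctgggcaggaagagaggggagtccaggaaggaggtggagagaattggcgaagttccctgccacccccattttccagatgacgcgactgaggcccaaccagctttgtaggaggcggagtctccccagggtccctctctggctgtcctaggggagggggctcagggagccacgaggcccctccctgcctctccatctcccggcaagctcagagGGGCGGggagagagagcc
The CACNA1B window was 85.2% G or C with 39 CpG dinucleotides and 5 matches. KCNJ8 had 64.8% with 15 CpG and 4 matches, and KCND1 had 65.6% with 8 CpG and 1 match.

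RE1, the element bound by the repressor REST, is known for silencing neuronal genes, channel genes among them, in other cell types. The left arm TTCAGCACC, read on both strands, was present in 2 of the 82 members with a RefSeq promoter entry and in 82 of all 27305 promoters (0.3%, and 0.242% of those of genes tested). Both members, KCNH6 and KCNK3, also held the right arm GGACAGC, as did 12 promoters in all (0.044%). The 60 bases around the arms are shown, with the arms in capitals; in KCNK3 the left arm lies on the reverse strand, as GGTGCTGAA.
KCNH6, chr17:63523110-63523169, plus strand: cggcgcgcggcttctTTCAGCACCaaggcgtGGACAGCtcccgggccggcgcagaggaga
KCNK3, chr2:26692662-26692721, plus strand: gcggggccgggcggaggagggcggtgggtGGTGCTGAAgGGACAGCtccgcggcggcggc
Both genes fell in LV, with values given below. REST itself stood at 48.4 ± 0.218 CPM in LV and 47.9 ± 9.25 CPM in WT (log2 fold change 0.02, edgeR adjusted p = 0.938). The letters are a description of the reference sequence. The search asked only for both arms in 1 window and set no order, strand or spacing. In the lines above, the gap between the arms differs between KCNH6 and KCNK3, and in KCNK3 the arms lie on opposite strands. Neither binding by REST nor a part of it in the fall of these genes was tested.

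Most of the channel genes that could be tested differed between LV and WT, and most of those were lower in LV. Of 117 members, 79 passed the filter on low counts, 44 were lower and 8 were higher (edgeR quasi-likelihood test over 19255 genes, adjusted p under 0.05 by Benjamini-Hochberg), and 27 did not pass. Lower calls made up 55.7% of the tested members, against 21.3% of all genes tested. Higher calls made up 10.1% of them, against 17.5% of all genes tested. A fold of at least 2 was fitted for 35 of the lower and 6 of the higher members, where 9.32% of all genes were lower and 4.49% higher by that rule. The median log2 fold change of the tested members was -0.69, with quartiles of -1.78 and 0.17, and that of all genes tested was -0.008, with quartiles of -0.33 and 0.26. All 3 LV libraries lay below all 3 WT libraries in 46 tested members and above them in 11, where the background was 27.9% and 26.1% of genes. In RNA from whole cultures, fewer cells that carry a transcript and less of it per cell cannot be told apart.

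The 38 members that were not tested had at most 24 reads in any library and a mean of 0.0135 to 0.18 CPM. At the edge of the count rule, 4 members had reads in exactly 3 libraries (KCNJ18, KCNK17, SCN3A and CACNA1S), with 7 to 68 reads over all libraries. Another 7 genes, such as KCNA3 and SCN7A, had reads in exactly 2 libraries, with 2 to 4 reads in all. By deposited TPM, a level per transcript length, 8 members averaged at least 10 TPM over the 6 libraries, 34 lay between 1 and 10, 46 between 0.1 and 1, and 29 under 0.1. Lower calls numbered 5 of the 8, 16 of the 34, 21 of 33 tested in the third class and 2 of 4 tested in the lowest. Over all genes tested, whatever their level, 21.3% were lower. The share within each class was not computed for all genes, so a dependence of the calls on level was not tested.

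**Figure D1:**
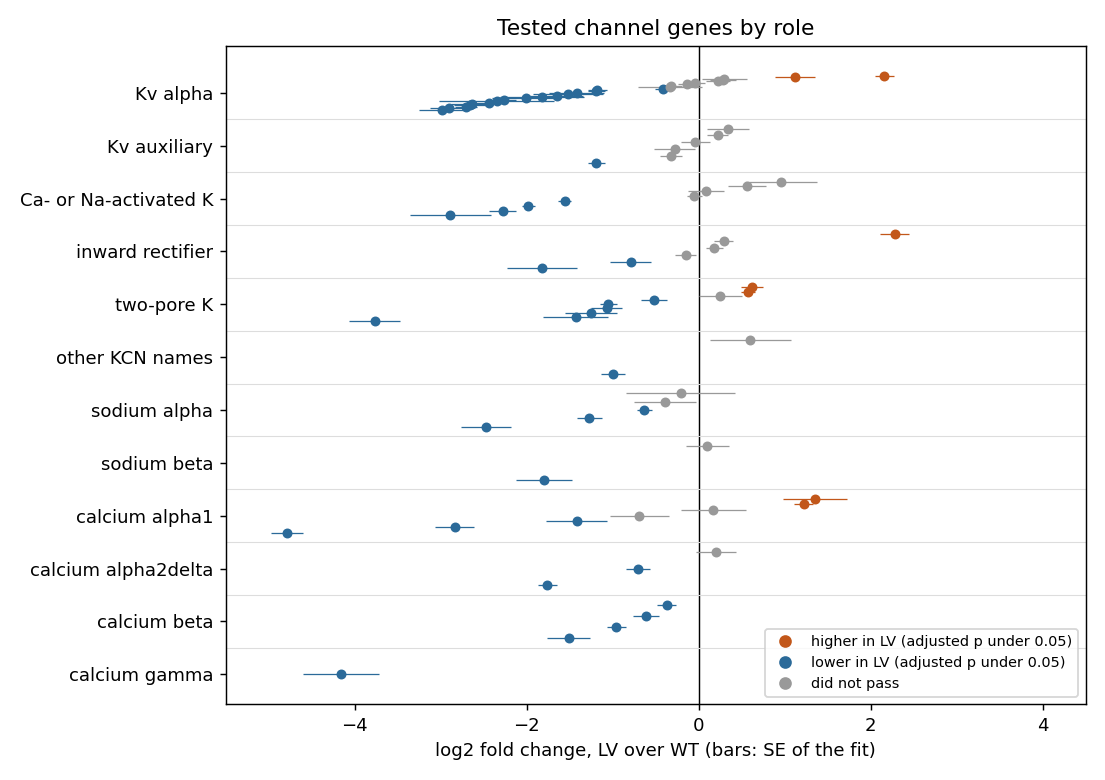
Fitted log2 fold change (LV over WT, horizontal axis) of the tested channel genes, 1 point per gene with the SE of the fit as a bar, grouped by role down the page; colour marks the call at an adjusted p under 0.05. KCNJ18 is left out because it had 0 reads in WT. The lower calls reach -4.79 (CACNA1B) and the highest call shown is KCNJ8 at 2.28.

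Voltage-gated potassium channel alpha subunits (Kv), which form the pore and carry the voltage sensor, held the largest number of changes. Of 25 tested, 16 were lower, 2 higher and 7 did not pass, and the median log2 fold change was -1.42. Their summed level was 79.8, 80.8 and 76.6 TPM in LV replicates 1 to 3, against 151, 173 and 155 TPM in WT replicates 1 to 3. The groups did not overlap, and the LV mean was 0.495 times the WT mean.

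KCNH6, an ERG-type channel that resembles the cardiac hERG channel, had 7.81, 7.73 and 7.23 CPM in LV, against 44.3, 58.7 and 45.4 CPM in WT (log2 fold change -2.71, SE 0.13, edgeR adjusted p = 5.49e-07). KCNH2, which encodes hERG itself, a channel of cardiac repolarisation, had 29.9, 30.4 and 28.6 CPM in LV, against 61.4, 79.0 and 60.7 CPM in WT (-1.18, SE 0.11, edgeR adjusted p = 4.31e-05). In both genes every LV library was below every WT library, and WT replicate 2 was the highest. Per length, KCNH6 was at 6.33 ± 0.287 TPM in LV and 42.3 ± 4.94 TPM in WT, and KCNH2 at 17.7 ± 0.626 TPM in LV and 41.0 ± 4.47 TPM in WT (SD, n = 3 each). The pair therefore stood at like TPM levels in WT, whereas KCNH6 was the lower of them in LV. The ELK-type KCNH4 had 0.440, 0.394 and 0.247 CPM in LV, against 2.51, 3.61 and 2.48 CPM in WT (-2.99, SE 0.26). KCNH7, the remaining ERG-type gene, and KCNH5, an EAG-type gene, were under 1 CPM in both groups and fell by 2.01 and 2.35 on the log2 scale; the call of KCNH5 was lost without LV replicate 2 (edgeR adjusted p = 0.0639) or LV replicate 3 (edgeR adjusted p = 0.0528). KCNH3 and KCNH8 did not pass, with log2 fold changes of 0.23 and 0.28.

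Shaw-type genes (KCNC), whose channels open at strongly depolarised potentials and let neurons fire fast, were lower in LV for KCNC1, KCNC2 and KCNC4. KCNC1 had 1.67, 1.54 and 2.39 CPM in LV, against 9.41, 11.4 and 9.97 CPM in WT (log2 fold change -2.44, SE 0.16). KCNC4 had 2.34, 3.15 and 2.92 CPM in LV, against 12.5, 15 and 12.6 CPM in WT (-2.27, SE 0.14). KCNC2 was under 0.5 CPM in every library (-1.52) and lost its call without LV replicate 2 or 3 (edgeR adjusted p = 0.0525 and 0.0787).

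KCNQ genes encode slowly opening channels, and KCNQ1 is known from cardiac repolarisation and epithelial potassium secretion. KCNQ1 had 0.364, 0.573 and 0.597 CPM in LV, against 1.13, 2.18 and 1.46 CPM in WT (-1.65, SE 0.31). Of its exons, 3.05% overlap the antisense noncoding gene KCNQ1OT1, which was lower as well, at 1.19 ± 0.0715 CPM in LV and 2.36 ± 0.154 CPM in WT, and reads there cannot be assigned without a known strand setting. KCNQ5 was lower by a smaller step (-0.42, SE 0.09, edgeR adjusted p = 0.00528).

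Among the other Kv alpha genes changed at least 2-fold, KCNS2 was lower, and KCND1 and KCNG1 were higher. KCNS2, a silent subunit that modifies other Kv pores, had 0.172, 0.251 and 0.185 CPM in LV, against 1.34, 1.17 and 1.19 CPM in WT (-2.64, SE 0.24). KCND1, a pore of the rapidly inactivating A-type current, had 6.47, 6.48 and 5.87 CPM in LV, against 1.38, 1.45 and 1.36 CPM in WT (2.16, SE 0.11, edgeR adjusted p = 9.30e-07). KCNG1, another silent subunit, had 2.20, 3.62 and 2.29 CPM in LV, against 1.11, 1.45 and 1.08 CPM in WT (1.12, SE 0.23). The KCND1 relative KCND2 did not pass (-0.32, edgeR adjusted p = 0.0885) and was called lower without WT replicate 2 (-0.40, edgeR adjusted p = 0.00590).

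The make-up of Kv alpha RNA differed between the groups. KCNH6 held 8.19, 8 and 7.83% of the summed Kv alpha TPM in LV, against 25.7, 27.6 and 25.9% in WT. KCNS3, whose own level did not pass a test (log2 fold change -0.14, edgeR adjusted p = 0.294), held 10.4, 10.3 and 9.76% in LV and 6.02, 4.69 and 6.50% in WT. KCND1 held 4.92, 4.86 and 4.61% in LV and 0.580, 0.496 and 0.564% in WT. Shares within a library sum to a fixed total, so a share can differ without a change in that gene.

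**Figure D2:**
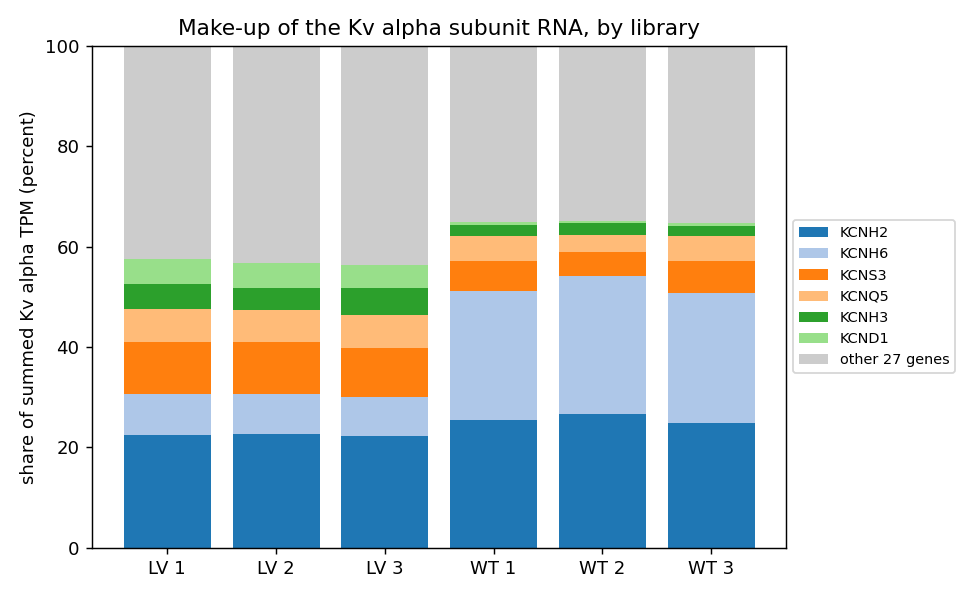
Share of the summed TPM of 33 Kv alpha genes (vertical axis, percent) held by 6 named genes and by the other 27, for the 3 LV libraries on the left and the 3 WT libraries on the right. KCNH6 holds 7.83 to 8.19% in LV, against 25.7 to 27.6% in WT, and KCNS3 takes 9.76 to 10.4% in LV, against 4.69 to 6.50% in WT.

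Accessory Kv subunits mostly did not pass. Of 6 tested, only KCNIP3 was called; it encodes a calcium-binding partner of the A-type channels that also acts as a transcriptional repressor. KCNIP3 had 9.27, 9.88 and 11.0 CPM in LV, against 22.4, 25 and 21.6 CPM in WT (log2 fold change -1.19, SE 0.10, edgeR adjusted p = 1.95e-05). The other 5, KCNAB1, KCNAB2, KCNAB3, KCNIP2 and KCNIP4, had log2 fold changes from -0.32 to 0.34, and KCNAB2 was called lower without WT replicate 1 (-0.40, edgeR adjusted p = 0.0485) or WT replicate 2 (-0.19, edgeR adjusted p = 0.0247). All 5 KCNE members were too low to be tested.

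Channels opened by calcium or sodium inside the cell were lower in 4 of 8 tested genes, and none was higher. KCNU1, grouped with them by name, did not reach the filter, with 9, 7 and 14 reads in LV and 1 in each WT library. The large-conductance BK channel fell in both its pore and its neuronal beta subunit. KCNMA1, the BK pore, had 8.56, 8.34 and 7.91 CPM in LV, against 24.5, 24.2 and 24.4 CPM in WT (log2 fold change -1.56, SE 0.08, edgeR adjusted p = 7.17e-07). KCNMB4, the beta subunit, had 7.91, 7.16 and 7.83 CPM in LV, against 31.2, 30.5 and 29 CPM in WT (-1.98, SE 0.08, edgeR adjusted p = 2.51e-07). The libraries of a group lay close together in both genes. LRRC26, a BK gamma subunit known from prostate cancer cells and not a KCN gene, stood at 28.3 ± 2.89 CPM in LV and 27.5 ± 5 CPM in WT (0.04, edgeR adjusted p = 0.833). KCNN1, a small-conductance channel, had 0.900, 1.11 and 1.01 CPM in LV, against 4.73, 5.58 and 4.17 CPM in WT (-2.28, SE 0.16). KCNT1, which is opened by sodium, had 0.153, 0.286 and 0.0824 CPM in LV, against 1.03, 1.78 and 0.777 CPM in WT (-2.89, SE 0.47). KCNN2, the most abundant small-conductance gene, did not pass (-0.05, edgeR adjusted p = 0.689), and KCNN4, which did not pass, was called higher without WT replicate 2 (0.56, edgeR adjusted p = 0.0389) or WT replicate 3 (0.75, edgeR adjusted p = 0.0417).

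Inward rectifiers, which pass potassium more readily into than out of the cell, were 2 higher, 2 lower and 3 not passed among 7 tested. Their summed level was 30.2, 29.8 and 30.0 TPM in LV, against 21.9, 24.1 and 23.3 TPM in WT, so this group stood higher in LV while most others stood lower. KCNJ8, the pore of an ATP-sensitive potassium channel, had 4.48, 4.76 and 4.39 CPM in LV, against 0.844, 1.19 and 0.777 CPM in WT (log2 fold change 2.28, SE 0.17, edgeR adjusted p = 9.00e-06). ABCC9, the sulfonylurea receptor gene that lies near KCNJ8 on chromosome 12 and encodes its usual partner, had 0.823, 0.608 and 0.391 CPM in LV, against 0.0823, 0.198 and 0.265 CPM in WT (1.72, edgeR adjusted p = 0.0136). The other ATP-sensitive pair, neighbours on chromosome 11, did not follow. KCNJ11 had 12.6, 11.8 and 11.8 CPM in LV, against 8.85, 11.3 and 9.52 CPM in WT (0.29, edgeR adjusted p = 0.0554; called higher without WT replicate 2, edgeR adjusted p = 2.42e-05), and its receptor gene ABCC8 had 0.172, 0.179 and 0.185 CPM in LV, against 0.926, 1.21 and 1.14 CPM in WT (-2.59, edgeR adjusted p = 5.29e-05). Thus the KCNJ8 and ABCC9 pair was higher, and of the second pair the receptor gene was lower.

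KCNJ18 and KCNJ12 encode nearly identical muscle-type inward rectifiers, and how reads were divided between them is not known. KCNJ18 had 26, 7 and 35 reads in LV and 0 in each WT library, where 3 reads over the WT group would be 0.0204 CPM, so it was at least 25.8-fold higher by this count. KCNJ12 had 51, 24 and 53 reads in LV, against 72, 105 and 72 in WT (log2 fold change -0.79, edgeR adjusted p = 0.0269), and its call was lost without any 1 LV library (edgeR adjusted p = 0.0533 to 0.0837). Summed, the copies stood at 1.47 ± 0.352 CPM in LV and 1.72 ± 0.517 CPM in WT (SD, n = 3 each), and the groups overlapped. The sum therefore did not show the opposite changes of its parts. KCNJ9, a subunit of G-protein-gated channels, was lower at under 1 CPM (-1.82, SE 0.41), and KCNJ3, its usual partner, did not pass (-0.15).

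Tandem-pore channels carry the background leak of potassium. Of 9 tested, 6 were lower, 2 higher and 1 did not pass. KCNK1 was the member of highest TPM among the potassium channel names over the 6 libraries, and it rose: it had 40.2, 41.6 and 40.7 CPM in LV, against 26.5, 29.3 and 26.6 CPM in WT (log2 fold change 0.57, SE 0.08, edgeR adjusted p = 3.31e-04). KCNK15 was also higher (0.62, SE 0.13), and 19.5% of its exonic bases overlap the antisense gene RIMS4, which held a mean of 23.3 reads in LV and 216 in WT. KCNK3, an acid-sensitive leak channel, had 0.345, 0.215 and 0.124 CPM in LV, against 2.70, 3.90 and 3.03 CPM in WT (-3.77, SE 0.30, edgeR adjusted p = 1.56e-05). KCNK5 had 3.91, 3.72 and 3.89 CPM in LV, against 7.43, 8.81 and 7.72 CPM in WT (-1.05, SE 0.10), and KCNK6 stood at 0.798 ± 0.126 CPM in LV and 1.66 ± 0.138 CPM in WT (-1.07, SE 0.18). KCNK17, which did not reach the filter, had 0 reads in each LV library and 17, 14 and 9 reads in WT, at least 11.7-fold lower against 3 reads over the LV group. KCNK2, KCNK9 and KCNK12 were lower, and each lost its call without at least 1 of the LV libraries. KCNK1 held most of the TPM of this role, and the summed level was 52.1, 52.7 and 52.5 TPM in LV, against 46.5, 48.9 and 46.1 TPM in WT, although 6 of the 9 tested genes were lower.

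**Figure D3:**
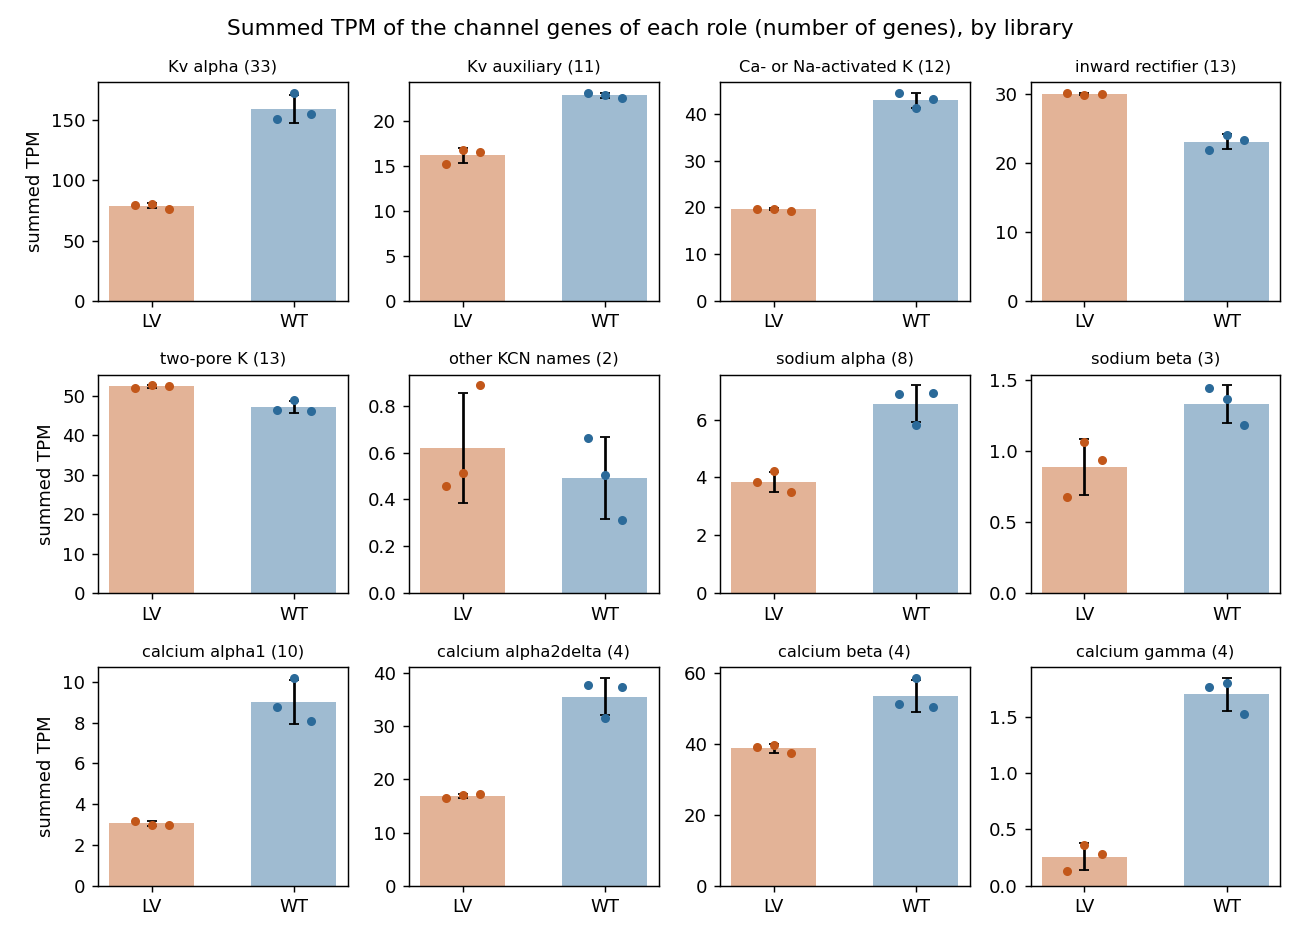
Summed TPM (vertical axis, separate scale in each panel, from 0) of the channel genes of each role, with the number of genes in brackets, for LV on the left and WT on the right; points are libraries, bars the mean and whiskers the SD over 3. Inward rectifiers stand at 29.8 to 30.2 TPM in LV and 21.9 to 24.1 TPM in WT, whereas Kv alpha genes stand at 76.6 to 80.8 TPM in LV and 151 to 173 TPM in WT.

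Sodium channel genes were few and low, and 4 of 7 tested were lower while none was higher. The alpha subunits, which carry the rapid inward current of excitable cells, summed to 3.83, 4.21 and 3.51 TPM in LV, against 6.90, 5.80 and 6.93 TPM in WT. Most of this was SCN8A, a brain and axon channel, which had 12, 13.5 and 11.4 CPM in LV, against 19.3, 18.1 and 19.5 CPM in WT (log2 fold change -0.63, SE 0.09, edgeR adjusted p = 5.51e-04). SCN2A, another brain channel, had 1.47, 1.29 and 1.11 CPM in LV, against 3.17, 2.93 and 3.26 CPM in WT (-1.27, SE 0.15). SCN9A, a channel of pain-sensing neurons, had 0.268, 0.215 and 0.185 CPM in LV, against 1.61, 1.08 and 1.08 CPM in WT (-2.47, SE 0.29); 4.93% of its exonic bases overlap the antisense gene AC010127.1, which was lower as well (-0.64). SCN2A, SCN9A and 2 further alpha genes lie in 1 cluster on chromosome 2, in the order SCN3A, SCN2A, SCN1A and SCN9A from position 165087522 to 166375993 (GRCh38). Within it SCN1A did not pass (-0.39, SE 0.36; called lower without WT replicate 2, -0.71, edgeR adjusted p = 0.0162) and SCN3A had at most 3 reads in any library. Of the beta subunits, which attach to the pore and bind adhesion molecules, SCN4B stood at 0.312 ± 0.167 CPM in LV and 1.01 ± 0.139 CPM in WT (-1.80, SE 0.33).

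Calcium channel genes were called in 12 of 15 tested members, 10 lower and 2 higher. The alpha1 subunits form the pore and set the type of current. CACNA1B, the pore of the N-type channel that drives transmitter release at nerve terminals, showed the largest fall of all tested members. It had 0.498, 0.787 and 0.659 CPM in LV, against 16.9, 20.5 and 15 CPM in WT (log2 fold change -4.79, SE 0.19, edgeR adjusted p = 2.01e-07), which is 27.8-fold lower. Per length it stood at 0.230 ± 0.0516 TPM in LV and 6.35 ± 0.733 TPM in WT, where it was the alpha1 gene of highest TPM. CACNA1G, a pore of the low-voltage T-type current, had 0.364, 0.501 and 0.391 CPM in LV, against 2.55, 3.68 and 2.56 CPM in WT (-2.84, SE 0.23). CACNA1H, another T-type pore, was lower at under 1 CPM (-1.42, SE 0.35; edgeR adjusted p = 0.0527 without LV replicate 1 and 0.0512 without LV replicate 3), and CACNA1I, the third, did not pass (-0.69, edgeR adjusted p = 0.140).

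CACNA1D, an L-type pore of endocrine and pacemaker cells, was higher in LV. It had 13.1, 11.7 and 12.7 CPM in LV, against 5, 6.15 and 5 CPM in WT (log2 fold change 1.22, SE 0.11, edgeR adjusted p = 3.00e-05), and at 2.13 ± 0.123 TPM in LV, against 0.942 ± 0.0729 TPM in WT, it was the alpha1 gene of highest TPM in LV. Of its exonic bases 6.80% overlap CHDH on the opposite strand, an abundant gene that was itself higher (1.15, with means of 7070 reads in LV and 3610 in WT), and the part of these reads in the CACNA1D count was not tested. CACNA1F, an L-type pore of the retina, was called higher at under 0.5 CPM (1.35, SE 0.37) and lost its call without LV replicate 1 or 3 or WT replicate 1 or 3 (edgeR adjusted p = 0.0637 to 0.0819). The alpha1 genes together summed to 3.18, 3.00 and 2.98 TPM in LV, against 8.76, 10.2 and 8.08 TPM in WT.

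The auxiliary calcium channel subunits carried most of the calcium channel RNA and leaned lower. CACNB3, a cytoplasmic beta subunit that brings the pore to the membrane, was the channel gene of highest TPM over the 6 libraries, at 34.6 ± 1.08 TPM in LV and 45.9 ± 4.87 TPM in WT. It had 71.0, 72.1 and 68.3 CPM in LV, against 84.2, 107 and 82.2 CPM in WT (log2 fold change -0.37, SE 0.11, edgeR adjusted p = 0.0216), and its call was lost without any 1 LV library (edgeR adjusted p = 0.0702 to 0.0892). All 4 beta subunit genes were lower, with CACNB4 at 0.631 ± 0.0532 CPM in LV and 1.78 ± 0.508 CPM in WT (-1.51, SE 0.25), CACNB2 at -0.96 and CACNB1 at -0.61. CACNA2D2, an alpha2delta subunit that raises the surface number of channels, had 7.58, 7.91 and 7.60 CPM in LV, against 25.2, 29.7 and 23.4 CPM in WT (-1.76, SE 0.11, edgeR adjusted p = 2.73e-06). CACNA2D1, the target of gabapentin, had 30.0, 29.6 and 31.7 CPM in LV, against 54.6, 38.6 and 56.0 CPM in WT (-0.71, SE 0.14, edgeR adjusted p = 0.00303), with WT replicate 2 the lowest WT library. CACNG4, whose product is also a partner of AMPA-type glutamate receptors, had 0.0191, 0.179 and 0.0618 CPM in LV, against 1.40, 1.43 and 1.14 CPM in WT (-4.16, SE 0.44, edgeR adjusted p = 8.29e-05), while CACNG2, CACNG7 and CACNG8 were too low to be tested.

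**Figure D4:**
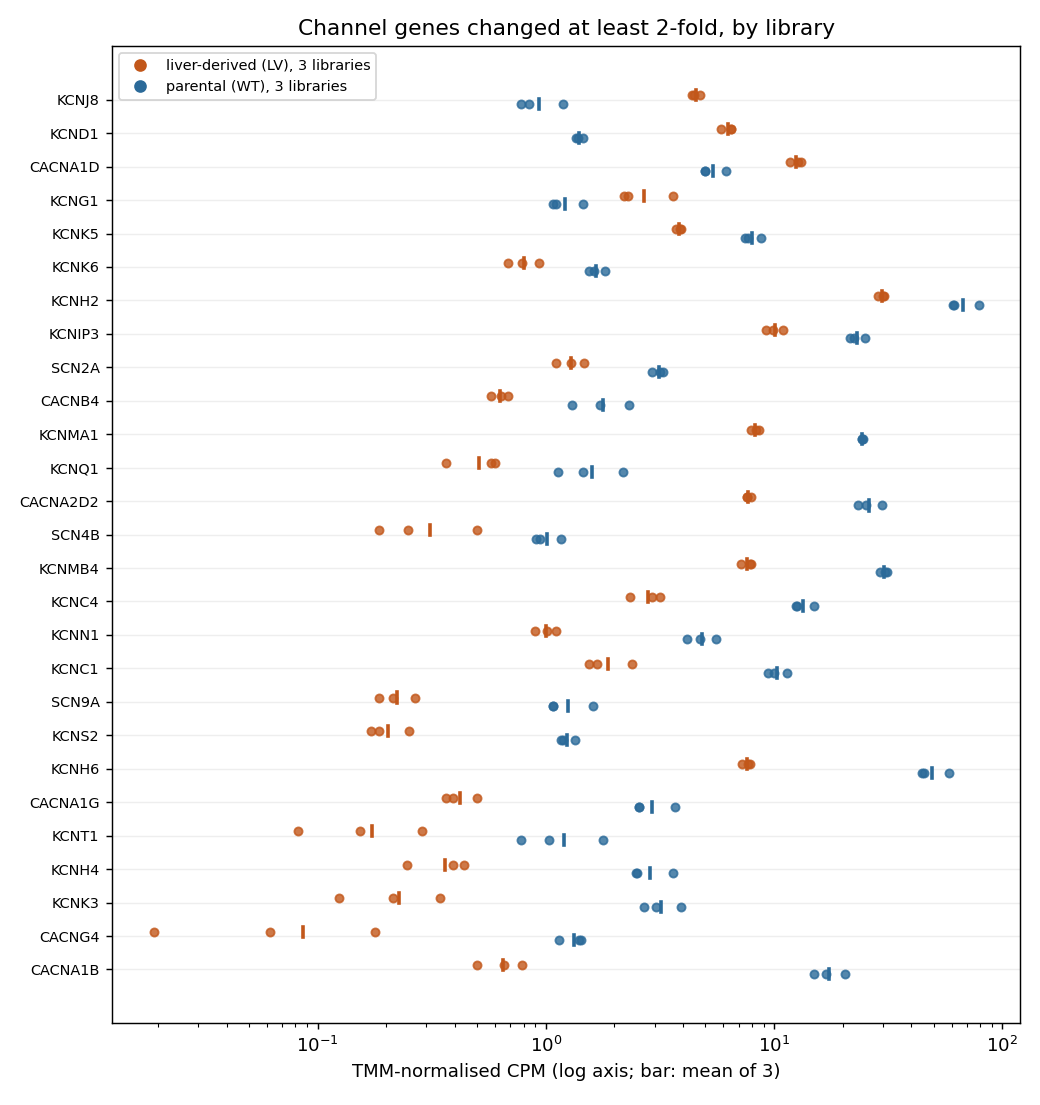
TMM-normalised CPM (horizontal log axis) in each LV and WT library for 27 of 30 channel genes. All 30 were called as changed 2-fold or more, and their higher group averaged 1 CPM or above. The rest of the 30, all lower in LV, are not shown. Bars mark group means, and genes run from the largest rise at the top to the largest fall at the bottom. The 4 genes at the top (KCNJ8, KCND1, CACNA1D and KCNG1) are higher in LV and the other 23 are lower. The libraries of the groups do not overlap for any of the 27, but choosing genes by call and fold favours this. Over all genes tested, LV lay below WT without overlap in 27.9% and above it in 26.1%.

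By position, the lower calls were spread over the genome. All 7 tested members on chromosomes 8, 9 and 6 were lower. Of 11 tested on chromosome 2, 7 were lower and none higher, and of 8 tested on chromosome 17, 6 were lower and 1 was higher. Both tested members on the X chromosome, KCND1 and CACNA1F, were higher. These chromosomes were named with the calls known, and the share of all genes called on each was not computed. Over the genome, 55.7% of tested members were lower and 10.1% higher, against 21.3% and 17.5% of all genes tested. Whether position plays a part was not tested. The 4 members on chromosome 21 (KCNE1, KCNE2, KCNJ6 and KCNJ15) were too low to be tested.

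Partners and relatives of these channels that the name pattern does not take moved in both directions. Of 28 tested among 39 listed, 14 were lower, 7 higher and 7 did not pass, with a median log2 fold change of -0.54. All 4 genes of the hyperpolarisation-activated HCN pacemaker channels were lower; HCN2 stood at 21.1 ± 1.02 CPM in LV and 58.3 ± 9.41 CPM in WT (-1.47). UNC79, a subunit of the sodium leak channel complex, stood at 2.10 ± 0.396 CPM in LV and 14.6 ± 0.657 CPM in WT (-2.76) and UNC80 was lower by -1.24, while the pore gene NALCN itself was too low to be tested. ANK3, a scaffold that gathers sodium channels in the membrane, rose to 103 ± 2.68 CPM in LV, against 42.1 ± 1.79 CPM in WT (1.30), and FGF13, which binds sodium channel alpha subunits, was also higher (0.89).

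Ion pumps and exchangers, which build the gradients that channels use, had 7 higher, 6 lower and 6 not passed among 19 tested. ATP1B1, a beta subunit of the sodium pump, was higher, at 182 ± 0.854 CPM in LV and 68.7 ± 7.03 CPM in WT (log2 fold change 1.41). Among other cation channels, the TRP, ORAI, STIM, PIEZO and MCOLN genes, 7 were higher, 3 lower and 9 did not pass among 19 tested, with a median of 0.17; MCOLN3 rose by 3.01 on the log2 scale.

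Neural and neuroendocrine genes were mostly lower in LV too. Of 16 tested among 20 listed, 5 of which are also among the neural markers above, 12 were lower, 1 was higher (SYT1) and 3 did not pass, with a median log2 fold change of -0.76. Their summed level was 440 to 445 CPM in LV and 802 to 890 CPM in WT. The list also holds REST, the repressor described above, which is counted in this sum and among the genes that did not pass. CELF3 stood at 8.30 ± 1.15 CPM in LV and 43.0 ± 6.84 CPM in WT (-2.38) and SNAP25 at 5.42 ± 0.385 CPM in LV and 23.0 ± 0.814 CPM in WT (-2.08), while INSM1 and NEUROD1 were too low to be tested. Their part in the fall of the channel genes was not tested.

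Leaving out a library changed few of these calls. Of the 52 called members, 42 kept their call without each of the 6 libraries in turn, and 10 lost it without at least 1 of them. Without WT replicate 2, 12 members were higher and 48 lower among 82 tested, and 6 that had not passed were called. Across the 6 omissions, lower calls made up 47.6 to 58.5% of the tested members and 16.0 to 31.0% of all genes tested.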

How the data were processed

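Libraries were made from polyA-selected RNA and read as pairs on a NovaSeq, per the labels' protocols. Per the submitters' processing notes, the tools were Trimmomatic 0.36 for trimming, STAR 2.5.2b for alignment and featureCounts (Subread 1.5.2) for counting, with GRCh38 as the genome; the sources used here do not give the annotation release or the strand setting. The authors deposited raw counts per gene, without normalization, and a table of TPM for the same libraries. TPM computed again from counts and gene lengths matched the deposited TPM within a relative difference of 1e-04. The table's 391182 rows without a gene were left out. Members were found by the table's symbols. Gene positions came from the deposited count files and biotypes from GENCODE 29, which held all 117 members.

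Counts were fitted with edgeR 4.0.16 (R 4.3.3; filterByExpr, TMM, robust quasi-likelihood, group as the only term) over 19255 genes, with a Benjamini-Hochberg adjusted p under 0.05 as the threshold; every adjusted p is from this fit or a stated alternative. The SE is the fitted log2 fold change divided by the square root of its F statistic. P-values measure the spread between these libraries, which may be technical. On counts simulated for LV against WT, the fit over 18926 genes recovered 68.7% of genes changed 2-fold and 97.0% of those changed 4-fold, with 7 false calls. Far fewer genes were changed in the simulation than were called here, and no library was made to stand apart as WT replicate 2 did. The 7 false calls therefore give no error rate for these data. Named members were called with a fold of 2 or more and 1 CPM or more in the higher group, or were among the 3 of highest TPM per ion, or had a called log2 change of at least 2 below 1 CPM; others are named as examples after their values were seen. Some genes that this rule or the lists take are counted but not reported here by name. The members, gene lists and tests were chosen with earlier results of these data known. Alternatives were other scaling factors, filters and tools (DESeq2 1.42.0, limma-voom of limma 3.58.1), the replicate number as a block and each library left out. Promoters of 82 of the 117 members were in the RefSeq table, too few for a comparison of promoter content between groups of members. The motifs searched on both strands, besides GGGCGG and both RE1 arms, were TGACGTCA, AGAACA and CACGTG, found in 1.77, 12.4 and 6.49% of all promoters and in 2.69, 7.55 and 8.70% of those of genes tested.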

Additional observations from a re-analysis of the deposited data

How the results depend on the processing

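The member counts stayed within 1.5 times of 8 higher and 44 lower under RLE or upper-quartile factors, no filter or a filter of 1 CPM in 3 libraries, DESeq2, limma-voom and each omission of 1 library, and no member called in both fits changed direction. Leaving out 1 library at a time gave 7 to 12 higher members and 39 to 48 lower members, and 5600 to 11870 genes called over the whole table against 7476, the highest without WT replicate 2. Of 488 values of the 38 named members under 13 alternatives, 483 kept their direction and side of the threshold and 5 lost the call: CACNB3 and KCNH5, each without single LV libraries, as given above. With the replicate number as a block, 9 members were higher and 45 lower and 7052 genes were called in all. Same-numbered libraries deviated with correlations of -0.008, 0.009 and 0.072, and the other pairs with -0.04 to 0.03. With 3 libraries per group, these values show no clear pairing but cannot exclude one. Levels under 1 CPM rest on few reads, and the cause of each lost call was not tested.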
